A study of Mus musculus with 72 samples.

Results

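Astrocytes, the star-shaped glial cells that surround synapses and blood vessels, were followed here through 29 genes that are commonly used to recognise them in the mouse hippocampus. The genes were taken by name from a list, which was chosen with earlier results of these data known. A gene was measured by a probe set, a group of short DNA probes that together report the level of a transcript, and only probe sets annotated to exactly 1 gene symbol were used. Where a gene had several, the probe set with the highest mean over all arrays was taken. This gave a value for 28 of the 29 genes, of 18820 genes measured in this way among 35556 probe sets. Slc7a10, a transporter of small neutral amino acids, is covered only by probe sets with several symbols and has no value here.

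The arrays held hippocampal RNA of 72 male C57BL/6J mice, 2 months old, in 8 groups of 9, each mouse giving both hippocampi. Contextual fear conditioning pairs a chamber with a foot shock, so that the mouse later freezes in that chamber. The shock lasted 2 s at 1.5 mA and was given at Zeitgeber time 3, early in the light phase. Trained mice were taken 30 min (FC30), 4 h (FC4), 12 h (FC12) and 24 h (FC24) later, and retrieval mice (RT30) were put back into the chamber for 5 min at 24 h and dissected 30 min later. Mice that were handled without training were dissected at matched times of day as CC30, CC4 and CC12, and CC30 served as control of FC30, RT30 and FC24. All mice had been handled daily and housed alone, no group received the chamber without the shock, and FC12 and CC12 were the groups taken in the dark phase.

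Astrocytes clear glutamate and potassium from the space around synapses, pass ions and metabolites to each other through gap junctions, hold the glycogen store of the brain and line its vessels with end-feet rich in water channels. In the hippocampus they take up the glutamate released during learning and supply neurons with lactate. Their genes therefore fall into working groups, which are used below: classical markers, gap junctions, water and ion transport, glutamate and amino acid transport, metabolism, receptors, secreted and adhesion proteins, and transcription factors.

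The values are log2 signals from which the first principal component over all arrays, the largest axis of variation between single mice, was subtracted. All 28 genes had a mean signal above the median of all probe sets, with means between 6.16 for Id3 and 12.17 for Aldoc. This is a description only, since signals of different probe sets are not on a common scale, and detection above background was not tested. Differences with an adjusted p under 0.1 were called (limma, Benjamini-Hochberg over all 35556 probe sets, two-sided). Whole tissue was measured, so fewer astrocytes and less RNA in each astrocyte cannot be told apart. As a check of the labels, 8 of 8 activity-induced genes were called higher in FC30 and in RT30 than in CC30, and 7 clock genes gave 6 higher and 1 lower in CC12 than in CC30. No 2 arrays of a group were identical.

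Training and retrieval left the astrocyte genes without a call. In FC30 against CC30, 0 of 28 genes passed the threshold, where 0.256% of all probe sets did. In RT30 against CC30 it was 0 of 28 against 0.278%, and in RT30 against FC24 0 of 28 against 0.152%. In FC4 against CC4, FC12 against CC12 and FC24 against CC30, 0 of 28 genes were called and 0% of all probe sets. At an unadjusted p under 0.05 there were 2 genes for FC30, where 5.99% of all genes passed, 2 for RT30 (6.35%), 2 for RT30 against FC24 (5.96%), 3 for FC4 (5.19%), 0 for FC12 (3.83%) and 1 for FC24 (4.08%). The median difference of the 28 genes was -0.0104 for FC30 and -0.0196 for RT30, beside -0.0017 and -0.0022 over all probe sets.

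The intervals differed in width between genes. Gfap, the intermediate filament protein that marks reactive astrocytes, differed by -0.01 between FC30 and CC30 on the log2 scale (95% interval -0.11 to 0.09) and by 0.04 between FC4 and CC4 (-0.06 to 0.14). Slc1a2, the main glutamate transporter of the forebrain, differed by -0.04 between FC30 and CC30 (-0.09 to 0.02) and by 0.04 between FC4 and CC4 (-0.01 to 0.09). Aldoc, the brain form of the glycolytic enzyme aldolase, differed by -0.02 between FC30 and CC30 (-0.07 to 0.03). Other genes had intervals that reached farther, to -0.28 for Id3 in RT30 against CC30, to 0.17 for Ppp1r3c in FC30 against CC30 and to 0.34 for Gjb6 in FC4 against CC4.

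**Figure D1:**
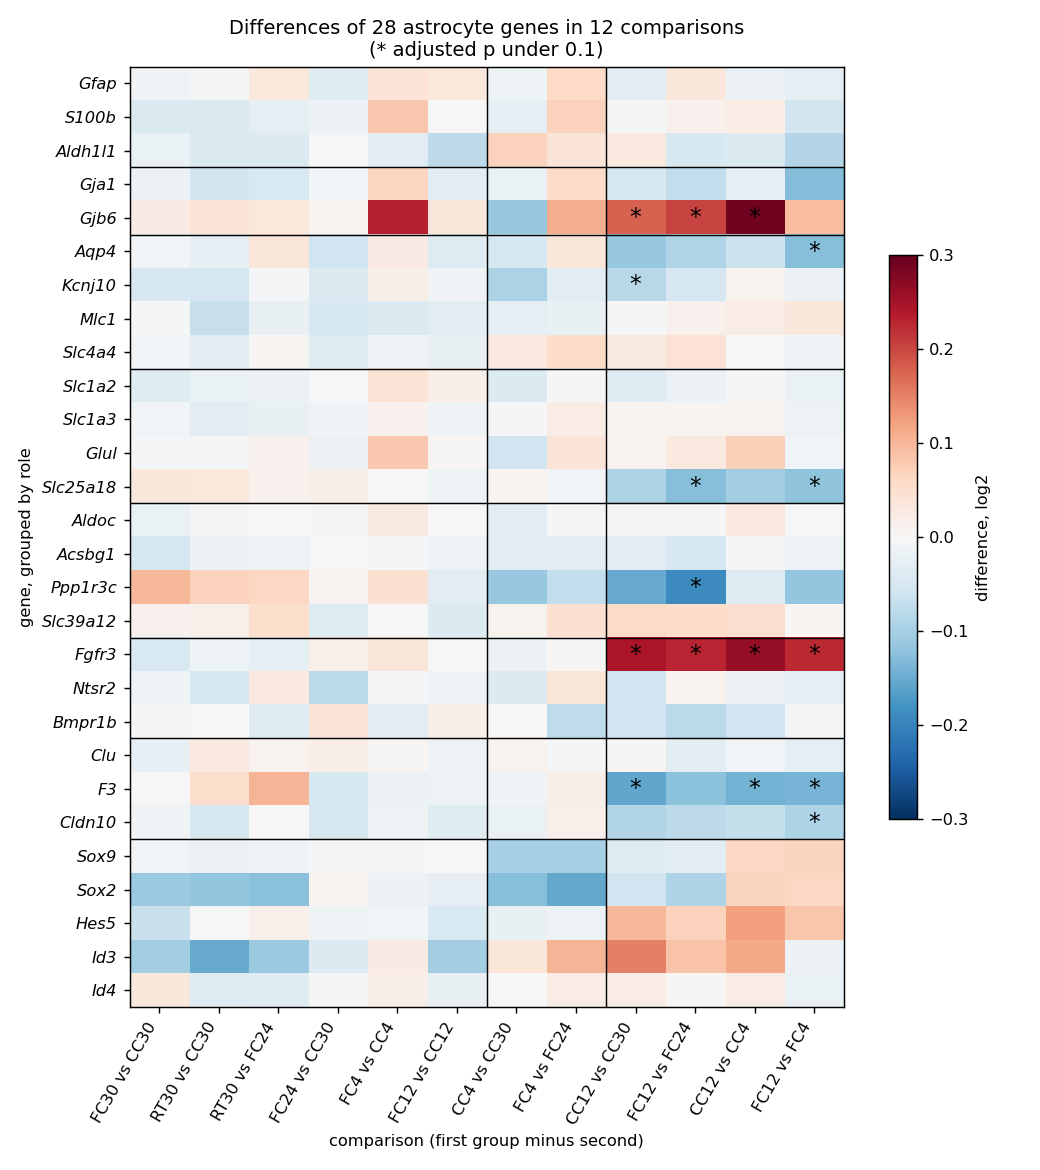
Log2 differences of 28 astrocyte genes (rows, grouped by role) in 12 comparisons (columns, first group minus second), red for higher and blue for lower. Stars mark an adjusted p under 0.1 and stand only in the 4 columns at the right, in which 12 h groups are set against light phase groups.

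The smallest unadjusted p in a training or retrieval comparison belonged to Gjb6, which encodes connexin 30, a gap junction channel protein of astrocytes. In FC4 mice its lowest, median and highest log2 signals were 7.73, 7.97 and 8.05, against 7.53, 7.70 and 7.94 in CC4 mice. All 9 of the FC4 mice lay above the CC4 mean and 5 of them above every CC4 mouse, so the groups still overlapped. The difference was 0.23 (SE 0.053, 95% interval 0.12 to 0.34), with an unadjusted p of 3.49e-04 and an adjusted p of 0.727 in limma. CC4 had the lowest mean of the 8 groups for this gene, 7.71, and CC4 mice lay 0.11 below CC30 (unadjusted p = 0.048, adjusted p = 0.801 in limma).

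The other gap junction gene, Gja1, which encodes connexin 43, differed by 0.07 between FC4 and CC4 (SE 0.030, unadjusted p = 0.045, adjusted p = 0.922 in limma). Glul, the glutamine synthetase that turns glutamate into glutamine, differed by 0.08 (SE 0.033, unadjusted p = 0.0234, adjusted p = 0.922 in limma), and its second probe set by 0.03 (unadjusted p = 0.262). Of the 28 genes 17 were on the positive side in FC4 against CC4, with a median of 0.0084 beside -0.0082 over all probe sets. The direct test of whether the Gjb6 difference at 4 h exceeded that at 30 min gave 0.21 (SE 0.075, adjusted p = 0.523 in limma), and 0 of 28 genes were called in the 4 such tests between training times, where 0.0703% of probe sets were called in this first test and 0% in the other 3.

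In the same comparison the markers of the meninges, the membranes that cover the hippocampus, were on the positive side for 9 of 10 genes, with a median of 0.20. Their mean signal ran between 6.63 and 7.57 in FC4 mice, against 6.74 and 7.33 in CC4 mice. Markers of the choroid plexus, the tissue that makes cerebrospinal fluid, were on the negative side for 10 of 10 genes (median -0.18), with a mean signal between 5.11 and 6.46 in FC4 mice, against 5.18 and 6.55 in CC4 mice. The medians of these mean signals over mice, FC4 against CC4, were 7.30 against 6.96 for meninges and 5.23 against 5.32 for choroid plexus. The genes of a list were read in the same mice, so their signs are not independent of each other. None of these markers was called, and their part in the Gjb6 difference was not tested.

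Single astrocyte genes differed between the 12 h groups, taken in the dark phase, and the light phase groups. In CC12 against CC30, 4 of 28 genes were called, where 3.5% of all probe sets were, or 4.54% of genes with 1 probe set each. These were 2 higher, beside 2.05% of probe sets, and 2 lower, beside 1.44%. In FC12 against FC24 it was 4 of 28 (3.19% of probe sets, 4.63% of genes), with 2 higher (2.11%) and 2 lower (1.08%). In CC12 against CC4 it was 3 of 28 (5.01%, 6.68%), with 2 higher (2.54%) and 1 lower (2.47%). In FC12 against FC4 it was 5 of 28 (4.22%, 5.49%), with 1 higher (2.51%) and 4 lower (1.71%). At an unadjusted p under 0.05 there were 9 genes in CC12 against CC30, where 15.5% of all genes passed, 8 in FC12 against FC24 (16.1%), 5 in CC12 against CC4 (17.2%) and 8 in FC12 against FC4 (18.3%).

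Between light phase groups nothing was called among these genes: 0 of 28 in CC4 against CC30, where 0.0731% of probe sets were called, and 0 of 28 in FC4 against FC24, where 0.112% were. Over the 4 dark phase comparisons, 8 of 28 genes were called at least once, where 9.63% of all probe sets and 12.3% of genes with 1 probe set each were. Fgfr3 and Gjb6 were called higher, and F3, Aqp4, Cldn10, Slc25a18 and Ppp1r3c lower, at 12 h, each with the same sign in all 4 comparisons. Kcnj10 was called lower in CC12 against CC30 and had the other sign in CC12 against CC4. The other 20 genes were called in none. The 4 comparisons share groups, so these counts are not independent of each other. In FC12 against FC24 and FC12 against FC4 the hours since training differed as well as the time of day. The 2 cannot be told apart there. Aqp4, Cldn10, Slc25a18 and Ppp1r3c were called only in these comparisons of trained mice.

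**Figure D2:**
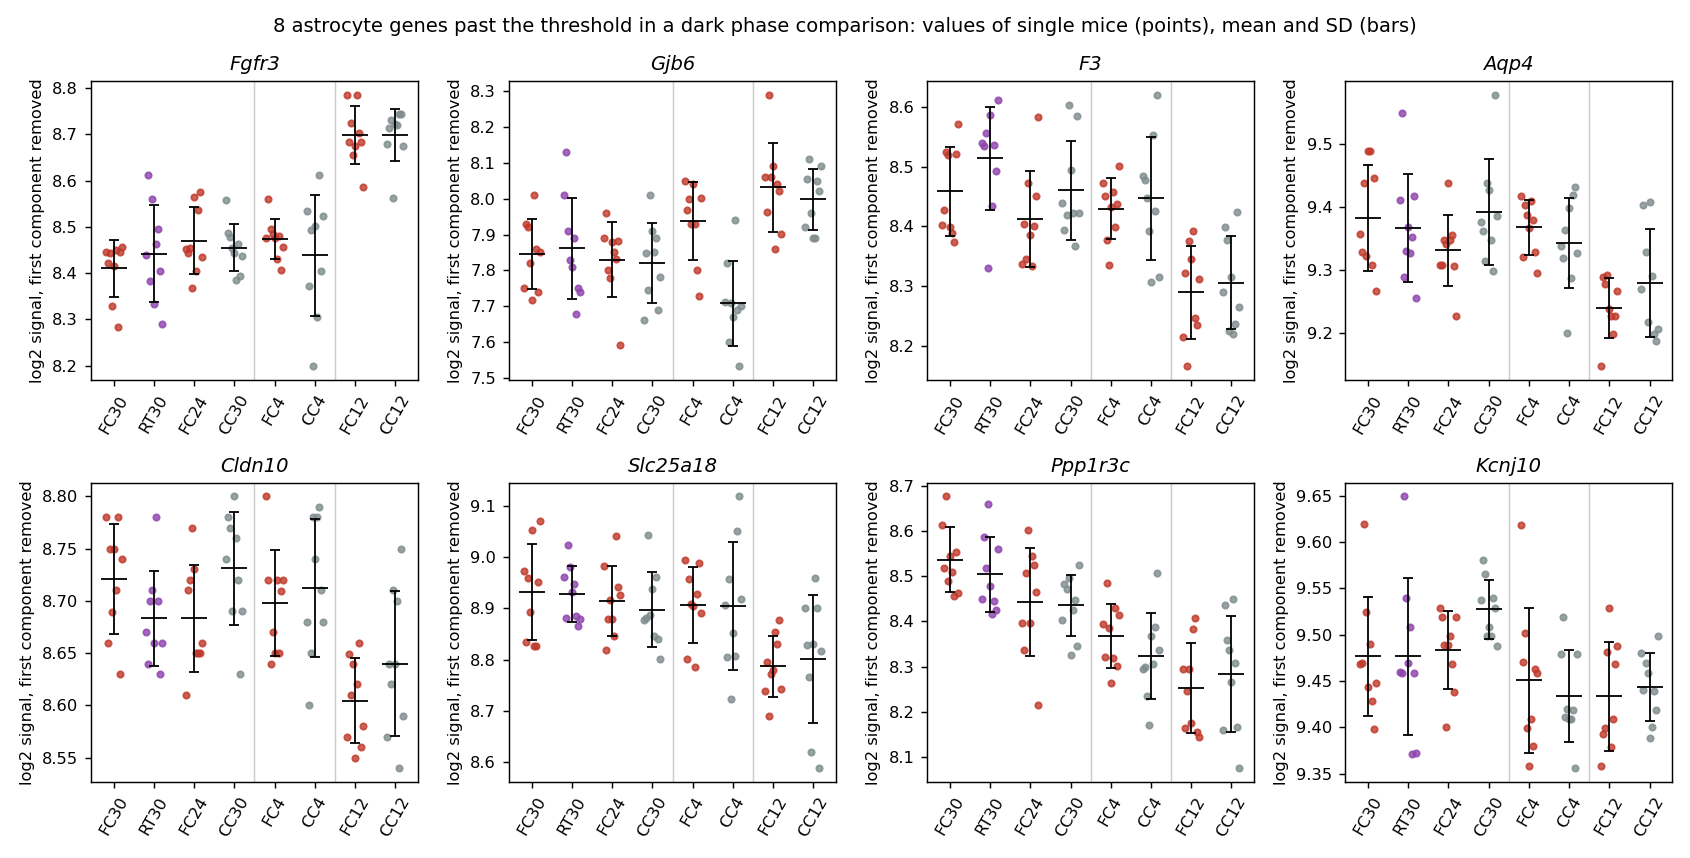
Log2 signal after subtraction of the first component for the 8 genes called in a dark phase comparison, 1 panel for each gene with its own axis, not starting at 0. Points are single mice of the 8 groups, trained (red), retrieval (purple) and handled (grey), bars are the mean and SD (n = 9), and the 12 h groups stand at the right. For Fgfr3 the FC12 mice lie above every FC24 and every FC4 mouse.

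Among the receptors, Fgfr3, a fibroblast growth factor receptor of astrocytes and their precursors, was called in all 4 comparisons. Its lowest, median and highest log2 signals were 8.59, 8.68 and 8.79 in FC12 mice, against 8.37, 8.45 and 8.58 in FC24 mice and 8.41, 8.48 and 8.56 in FC4 mice. In CC12 mice they were 8.56, 8.72 and 8.74, against 8.38, 8.45 and 8.56 in CC30 mice and 8.20, 8.49 and 8.61 in CC4 mice. Every FC12 mouse lay above every FC24 and FC4 mouse, every CC12 mouse lay above every CC30 mouse, and 8 of 9 CC12 mice lay above every CC4 mouse.

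The Fgfr3 difference was 0.24 for CC12 against CC30 (SE 0.029, an 18.4% higher signal, adjusted p = 1.85e-04 in limma) and 0.26 for CC12 against CC4 (SE 0.047, adjusted p = 0.0035). In trained mice it was 0.23 for FC12 against FC24 (SE 0.034, adjusted p = 0.00109) and 0.22 for FC12 against FC4 (SE 0.029, adjusted p = 3.95e-04). FC12 and CC12 averaged 8.70 each, and the means of the other 6 groups ran between 8.41 and 8.47. FC12 and CC12 differed by 0.00 (95% interval -0.07 to 0.06). The other receptors, the neurotensin receptor Ntsr2 and the bone morphogenetic protein receptor Bmpr1b, were not called in any comparison.

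Gjb6 was called higher in 3 of the 4 comparisons. In FC12 mice its lowest, median and highest signals were 7.86, 8.04 and 8.29, against 7.59, 7.85 and 7.96 in FC24 mice. In CC12 mice they were 7.89, 8.02 and 8.11, against 7.66, 7.85 and 8.01 in CC30 mice. The groups overlapped in each of these pairs, with 7 of 9 FC12 mice above every FC24 mouse and 5 of 9 CC12 mice above every CC30 mouse.

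The Gjb6 difference was 0.29 for CC12 against CC4 (SE 0.048, adjusted p = 0.00181 in limma), 0.20 for FC12 against FC24 (SE 0.053, adjusted p = 0.0542) and 0.18 for CC12 against CC30 (SE 0.047, adjusted p = 0.0567). For FC12 against FC4 it was 0.09 (SE 0.054, adjusted p = 0.43). The mean signals in order were 8.03 in FC12, then CC12 close behind it, 7.94 in FC4, 7.86 in RT30, 7.84 in FC30, 7.83 in FC24, 7.82 in CC30 and 7.71 in CC4. Gja1, its partner in the gap junctions of astrocytes, was at -0.13 in FC12 against FC4 (SE 0.041, adjusted p = 0.11 in limma). In CC12 against CC30 it was at -0.05, in CC12 against CC4 at -0.03 and in FC12 against FC24 at -0.07. None of these differences of Gja1 passed the threshold. Without the 6 arrays that stood apart in an earlier analysis of these data, Gjb6 was at 0.15 in CC12 against CC30 (adjusted p = 0.247) and at 0.20 in FC12 against FC24 (adjusted p = 0.134) in limma. With the replicate number as a block its adjusted p in CC12 against CC30 was 0.147.

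Among the secreted and adhesion proteins, F3, the tissue factor that starts blood clotting and is made in the brain by astrocytes, was lower in the dark phase. Its lowest, median and highest signals were 8.17, 8.31 and 8.39 in FC12 mice, against 8.33, 8.44 and 8.50 in FC4 mice. In CC12 mice they were 8.22, 8.29 and 8.42, against 8.37, 8.42 and 8.60 in CC30 mice. Of 9 mice, 6 in FC12 lay below every FC4 mouse and 6 in CC12 below every CC30 mouse.

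The F3 difference was -0.16 for CC12 against CC30 (SE 0.039, adjusted p = 0.0451 in limma), -0.14 for FC12 against FC4 (SE 0.033, adjusted p = 0.0308) and -0.14 for CC12 against CC4 (SE 0.044, adjusted p = 0.0958). For FC12 against FC24 it was -0.12 (SE 0.038, adjusted p = 0.121). Without CC4 replicate 8 the CC12 against CC4 difference was -0.12 (adjusted p = 0.122), and without the 6 arrays F3 was not called in any comparison (adjusted p = 0.18 for CC12 against CC30).

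Cldn10, a claudin of cell junctions, had lowest, median and highest signals of 8.55, 8.61 and 8.66 in FC12 mice, against 8.64, 8.71 and 8.80 in FC4 mice. The FC12 values were lower by 0.09 (SE 0.026, adjusted p = 0.0685 in limma), with 6 of 9 FC12 mice below every FC4 mouse. A second probe set of the gene gave -0.09 (adjusted p = 0.0933). With the replicate number as a block the call of the main probe set in FC12 against FC4 was lost (adjusted p = 0.185 in limma). Clu, the secreted chaperone clusterin, was not called in any comparison.

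Among the genes for water and ion transport, Aqp4, the water channel of astrocyte end-feet, was called in FC12 against FC4. Its lowest, median and highest signals were 9.15, 9.24 and 9.29 in FC12 mice, against 9.30, 9.38 and 9.42 in FC4 mice, and no FC12 mouse reached an FC4 mouse. The difference was -0.13 (SE 0.026, adjusted p = 0.0118 in limma). It was -0.11 for CC12 against CC30 (adjusted p = 0.199) and -0.09 for FC12 against FC24 (adjusted p = 0.115), which were not called.

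Kcnj10, the inward rectifier potassium channel that takes up potassium, was called only in CC12 against CC30. Its signals were 9.39, 9.44 and 9.50 in CC12 mice, against 9.49, 9.53 and 9.58 in CC30 mice, with 8 of 9 CC12 mice below every CC30 mouse. The difference was -0.08 (SE 0.023, adjusted p = 0.0656 in limma). CC4 lay as low, by -0.09 against CC30 (unadjusted p = 0.0018, adjusted p = 0.478 in limma), and CC12 differed from CC4 by 0.01, so for this gene CC30 stood above both other handled groups. The call in CC12 against CC30 was lost with all groups in 1 fit (adjusted p = 0.105), with the replicate number as a block (0.191) and without the 6 arrays (0.30) in limma. Mlc1, a membrane protein of end-feet, and Slc4a4, a sodium bicarbonate cotransporter, were not called in any comparison.

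In the glutamate group, Slc25a18, a mitochondrial glutamate carrier, was called lower in trained mice in the dark phase. Its signals were 8.69, 8.78 and 8.88 in FC12 mice, against 8.82, 8.92 and 9.04 in FC24 mice and 8.79, 8.91 and 8.99 in FC4 mice. The difference was -0.13 against FC24 (SE 0.033, adjusted p = 0.0472 in limma) and -0.12 against FC4 (SE 0.034, adjusted p = 0.0697). In handled mice it was -0.10 for CC12 against CC30 and -0.10 for CC12 against CC4, with adjusted p of 0.404 and 0.472. With the replicate number as a block both calls in trained mice were lost (adjusted p = 0.111 against FC24 and 0.17 against FC4), and with all groups in 1 fit that against FC4 (0.102) in limma. The transporters Slc1a2 and Slc1a3, which clear glutamate at synapses, and Glul were not called, and Slc1a3 differed by 0.01 between CC12 and CC30 (95% interval -0.06 to 0.07).

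Of the metabolic genes, Ppp1r3c, a subunit that directs protein phosphatase 1 to glycogen and favours its synthesis, was called in FC12 against FC24. Its signals were 8.14, 8.25 and 8.41 in FC12 mice, against 8.22, 8.46 and 8.60 in FC24 mice. The difference was -0.19 (SE 0.051, adjusted p = 0.0596 in limma). All 9 FC12 mice lay below the FC24 mean and 4 of them below every FC24 mouse. Without the 6 arrays the difference from FC24 was -0.17 and not called (adjusted p = 0.138 in limma). In CC12 against CC30 it was -0.15 (SE 0.048, adjusted p = 0.124).

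The group means of Ppp1r3c lay at 8.54 in FC30, 8.50 in RT30, 8.44 in FC24, 8.44 in CC30, 8.37 in FC4, 8.32 in CC4, 8.28 in CC12 and 8.25 in FC12. In FC30 against CC30 the difference was 0.10 (SE 0.035, unadjusted p = 0.0097, adjusted p = 0.551 in limma), with 9 of 9 FC30 mice above the CC30 mean. Aldoc, the lipid enzyme Acsbg1 and the zinc transporter Slc39a12 were not called in any comparison.

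The classical markers Gfap, S100b, a calcium-binding protein, and Aldh1l1, an enzyme of folate metabolism, were not called. Nor were the transcription factors Sox9, Sox2, Hes5, Id3 and Id4, which are known from glial and stem cell development. Sox2, a factor of neural precursors and astrocytes, had the smallest unadjusted p among them, in FC4 against FC24: its signals were 8.37, 8.42 and 8.69 in FC4 mice, against 8.52, 8.64 and 8.68 in FC24 mice. The difference was -0.15 (SE 0.039, unadjusted p = 9.11e-04, adjusted p = 0.241 in limma). It was not particular to trained mice at 4 h. The group means of Sox2 were 8.62 in FC24 and CC30, 8.56 in CC12 and 8.53 in FC12. They were 8.50 in FC30 and RT30, 8.49 in CC4 and 8.47 in FC4. Id3, an inhibitor of basic helix-loop-helix factors, differed by 0.15 in CC12 against CC30 (SE 0.064, adjusted p = 0.301) and by -0.15 in RT30 against CC30 (SE 0.061, adjusted p = 0.599) in limma.

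Trained and handled mice can be set side by side for the dark phase, because FC12 against FC24 and CC12 against CC30 share no mice. Of 28 genes 22 had the same sign in both, and the differences correlated across genes with Pearson's r = 0.93 and Spearman's rho = 0.86, beside r = 0.38 and the same sign in 63.2% over all probe sets. For FC12 against FC4 and CC12 against CC4 the same sign was found for 21 of 28 genes (r = 0.86, beside 0.42 over all probe sets). For FC4 against FC24 and CC4 against CC30 it was 13 of 28 (r = 0.47, beside 0.11). These correlations are descriptions across genes measured on the same arrays, genes are not independent replicates, and Fgfr3 and Gjb6 stand far out on both axes. All probe sets include those of lower signal and those without a symbol, and probe sets of like signal were not compared. The difference in the effect of time between trained and handled mice was tested directly, and 0 of 28 genes were called in FC12 against CC12 minus FC24 against CC30, nor was any of all probe sets.

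**Figure D3:**
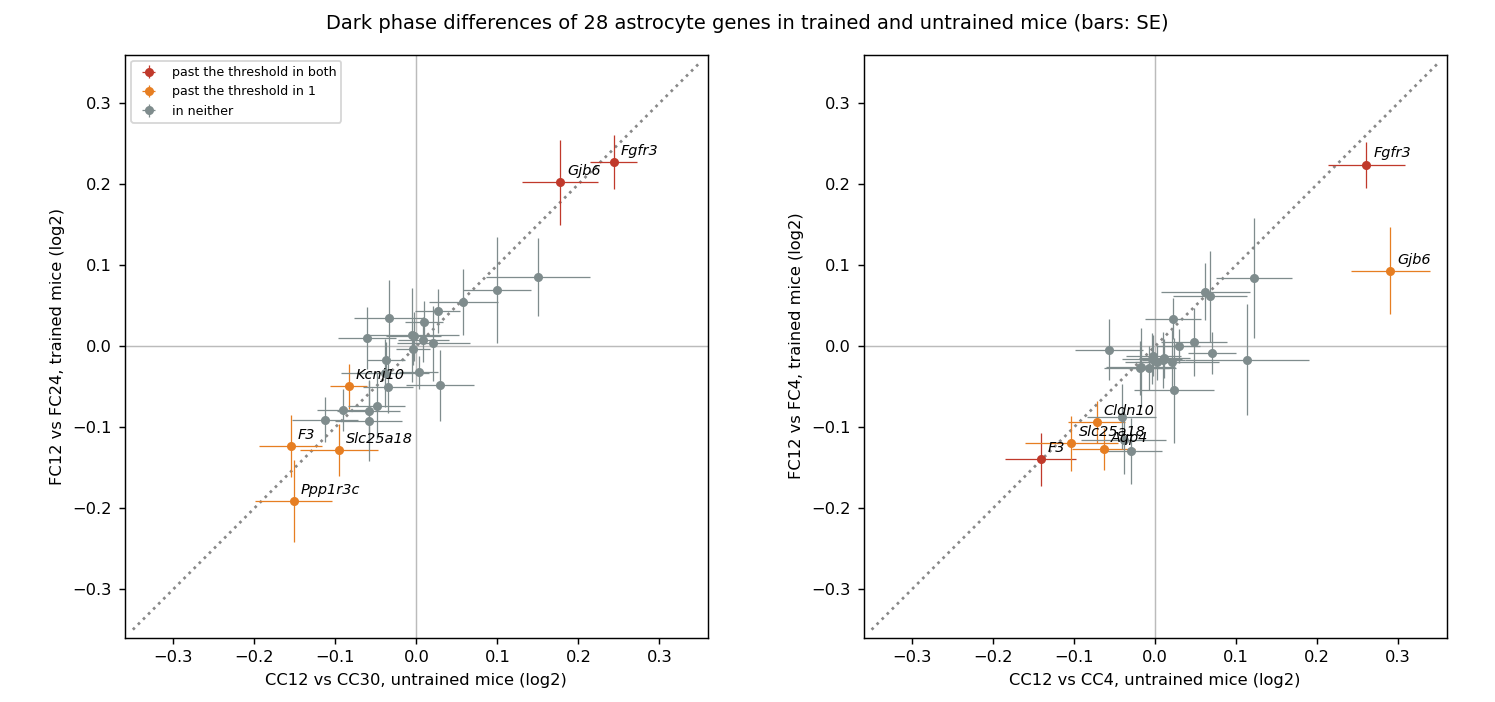
Dark phase differences of 28 astrocyte genes in trained mice (vertical axis, log2) against handled mice (horizontal axis, log2), with 12 h set against early light at the left and against 4 h at the right. Points are genes, bars their SE, the dotted line marks equal differences, and Fgfr3 lies at the upper right in both panels.

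The promoters of the 2 genes higher in the dark phase, and of Ppp1r3c, were read from RefSeq windows of 250 bases before to 50 after the annotated start (GRCm38.p6). The genes and motifs to show were chosen after their values and matches were seen, and a TATA box and a glucocorticoid response element were also searched and left out. Motifs are given in capitals. The E-box of clock factors (CACGTG, the same on both strands) was in 7.15% of 32851 promoter windows of all genes and, among 31 windows of 25 astrocyte genes, in those of Ntsr2 and Ppp1r3c. The D-box (TTATGTAA, both strands) was in 0.938% of all windows and in that of Cldn10, and the cAMP response element (TGACGTCA) was in 1.79% and in 0 of the 31. None of these matches overlapped another.
Fgfr3, first annotated start (chr5:33721474-33721773, plus strand): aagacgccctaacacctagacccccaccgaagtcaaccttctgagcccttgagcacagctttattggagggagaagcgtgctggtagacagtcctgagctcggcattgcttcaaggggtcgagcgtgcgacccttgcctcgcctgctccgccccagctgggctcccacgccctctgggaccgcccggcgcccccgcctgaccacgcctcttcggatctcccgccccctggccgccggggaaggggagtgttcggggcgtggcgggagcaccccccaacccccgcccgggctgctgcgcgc
Fgfr3, second annotated start (chr5:33722056-33722355, plus strand): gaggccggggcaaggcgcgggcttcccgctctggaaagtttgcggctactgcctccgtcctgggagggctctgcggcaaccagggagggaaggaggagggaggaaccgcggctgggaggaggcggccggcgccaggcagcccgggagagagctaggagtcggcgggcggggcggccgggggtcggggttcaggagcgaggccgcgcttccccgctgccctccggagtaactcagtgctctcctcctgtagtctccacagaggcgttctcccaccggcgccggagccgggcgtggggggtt
Gjb6 (chr14:57133562-57133861, minus strand): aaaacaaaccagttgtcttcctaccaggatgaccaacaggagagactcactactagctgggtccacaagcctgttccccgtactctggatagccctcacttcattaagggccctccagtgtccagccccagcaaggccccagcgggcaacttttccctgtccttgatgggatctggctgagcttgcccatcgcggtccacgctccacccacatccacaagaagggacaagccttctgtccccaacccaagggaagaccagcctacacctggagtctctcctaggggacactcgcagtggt
Ppp1r3c (chr19:36736555-36736854, minus strand): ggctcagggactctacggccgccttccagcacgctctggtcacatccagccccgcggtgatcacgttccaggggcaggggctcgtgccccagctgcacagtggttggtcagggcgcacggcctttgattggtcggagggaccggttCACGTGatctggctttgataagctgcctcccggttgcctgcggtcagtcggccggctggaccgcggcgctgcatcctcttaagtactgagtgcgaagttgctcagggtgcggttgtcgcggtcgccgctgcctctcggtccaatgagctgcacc
The E-box of Ppp1r3c began at position -104 from the annotated start, and the windows of Fgfr3 and Gjb6 held none of the 3 motifs. A match describes the letters and does not show that a factor binds there.

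The spread between mice of a group was below the median of all genes for most of these genes. All 28 had a mean signal above the median of all probe sets, and genes of like signal were not compared. The median within-group SD of the 28 genes was 0.081 on the log2 scale, beside 0.098 over all 18820 genes, and 22 of 28 lay below the median of all genes. Aldoc varied least, with an SD of 0.035, and Id3 most, with 0.144. The range of the 8 group means was 0.32 for Gjb6, 0.30 for Id3, 0.29 for Fgfr3 and 0.28 for Ppp1r3c, and 0.03 for Aldoc. Fgfr3 had the widest range in units of its own SD, 3.72, and Ppp1r3c followed with 3.01.

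After subtraction of the first component, the genes did not vary as a single block between mice of a group. Variation that they share along that component was removed beforehand and cannot be seen here. Over 378 pairs of genes the mean correlation of the deviations from the group means was 0.049, beside 0.011 over all pairs of genes, described over the 72 mice with no test. The highest was 0.59, for Kcnj10 and Clu, followed by 0.56 for S100b and Slc1a3 and 0.55 for Gja1 and Slc1a2. The lowest was -0.45, for Glul and Ppp1r3c.

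**Figure D4:**
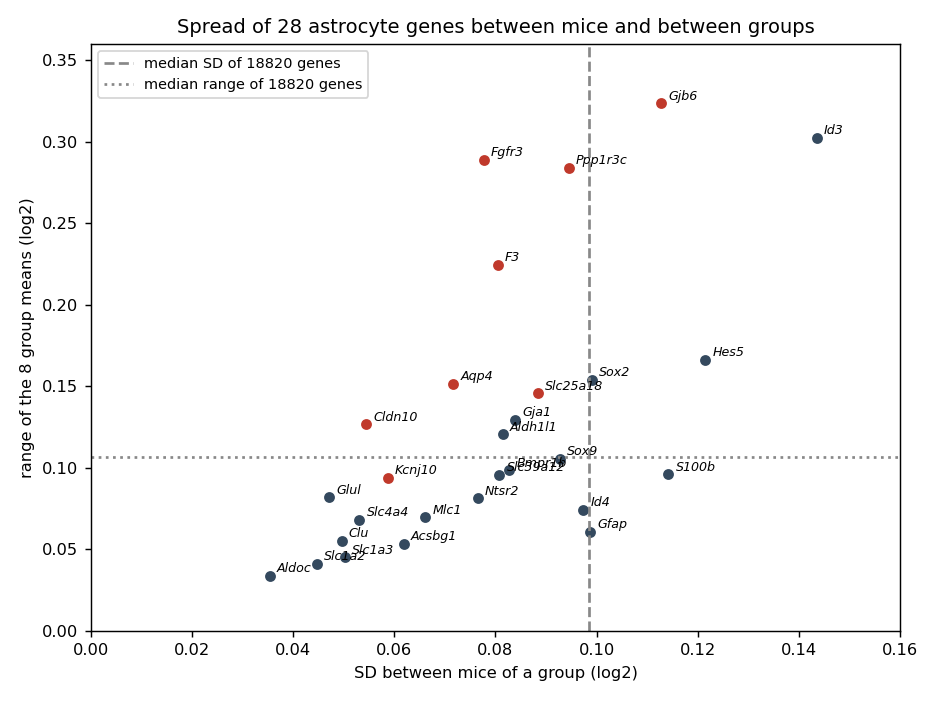
Range of the 8 group means (vertical axis, log2) against the SD between mice of a group (horizontal axis, log2) for 28 astrocyte genes, with the 8 genes called in a dark phase comparison in red. The dashed and dotted lines give the medians of 18820 genes, and Fgfr3 combines a range of 0.29 with an SD of 0.078.

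Partners of these genes in the same pathways were read from longer lists, beside the 4.54% of all genes called in CC12 against CC30, 4.63% in FC12 against FC24, 6.68% in CC12 against CC4 and 5.49% in FC12 against FC4. No list was tested for enrichment. Of 14 measured partners in the glutamate cycle, 1 was higher and 1 lower in CC12 against CC30 and in FC12 against FC4, and 1 higher and 2 lower in the other 2. Slc38a3, a glutamine transporter of astrocytes, was at -0.19 in CC12 against CC30 (adjusted p = 0.0143) and at -0.28 in FC12 against FC24 (adjusted p = 2.63e-04) in limma. Slc38a2, another glutamine transporter, was at 0.30 (adjusted p = 0.0167) and 0.32 (adjusted p = 3.50e-04) in these comparisons. Both were also called in CC12 against CC4 and FC12 against FC4, with the same signs, and the third gene called was Grm3, a glutamate receptor, at -0.13 in CC12 against CC4 and in FC12 against FC24.

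Of 17 measured genes of glycogen and lactate metabolism, 3 were higher and 0 lower in CC12 against CC30, 2 higher and 1 lower in FC12 against FC24, 2 higher and 0 lower in CC12 against CC4, and 1 higher and 2 lower in FC12 against FC4. In CC12 against CC30, Slc2a1, the glucose transporter of the blood-brain barrier and astrocytes, was at 0.24 (adjusted p = 7.73e-04 in limma), Pfkfb3, an activator of glycolysis, at 0.18 (adjusted p = 0.036) and the glycogen branching enzyme Gbe1 at 0.15 (adjusted p = 0.0508). The genes called lower were Ugp2, which makes the sugar nucleotide for glycogen, at -0.12 in FC12 against FC24 and -0.15 in FC12 against FC4, and the lactate transporter Slc16a7, at -0.10 in FC12 against FC4.

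Among 20 partners in BMP, Notch and ID signalling, 2 were higher and 1 lower in CC12 against CC30. Hey2, a Notch target, was at 0.39 (adjusted p = 0.0028), Bmp4 at 0.27 (adjusted p = 0.0703) and Id2 at -0.17 (adjusted p = 0.0249) in limma. The list gave 2 higher and 2 lower in FC12 against FC24, 1 higher and 1 lower in CC12 against CC4, and 2 higher and 1 lower in FC12 against FC4. Among 19 FGF and SOX partners, 2 were higher and 0 lower in CC12 against CC30, Dusp6, a phosphatase induced by FGF signalling, at 0.26 (adjusted p = 0.087) and Sox11 at 0.16 (adjusted p = 0.0766) in limma. It was also 2 higher and 0 lower in FC12 against FC24 and in FC12 against FC4, and 3 higher and 2 lower in CC12 against CC4.

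Of 12 measured gap junction, water and ion partners, 0 were called in each of the 4 dark phase comparisons. Of 50 further astrocyte genes, 4 were higher and 3 lower in CC12 against CC30, 9 higher and 6 lower in FC12 against FC24, 5 higher and 3 lower in CC12 against CC4, and 5 higher and 7 lower in FC12 against FC4. The phagocytic receptor Mertk was at 0.31 in CC12 against CC30 (adjusted p = 7.48e-04) and 0.32 in FC12 against FC24 (adjusted p = 2.81e-04) in limma. Etnppl, an enzyme of phospholipid breakdown, was at 0.65 (adjusted p = 0.0207) and 0.65 (adjusted p = 5.14e-04), and Tril, a partner of Toll-like receptors, at -0.24 (adjusted p = 0.00138) and -0.22 (adjusted p = 0.00477) in these comparisons. Of 13 measured genes of reactive astrocytes, 0 were called in CC12 against CC30 and 2 lower in FC12 against FC24, S1pr3 at -0.15 and Aspg at -0.18. In CC12 against CC4 the small heat shock protein Hspb1 was higher, at 0.49 (adjusted p = 0.0114 in limma), and in FC12 against FC4 the surface receptor Cd44 was lower, at -0.21 (adjusted p = 0.0747 in limma). Hspb1 has 3 probe sets and Tril 2, and only the one with the highest mean was read for each.

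Some markers of other cells also differed in the dark phase comparisons. Choroid plexus markers were on the positive side for 10 of 10 genes in CC12 against CC30 (median 0.33), with a mean signal between 5.18 and 6.98 in CC12 mice, against 5.04 and 6.19 in CC30 mice. In FC12 against FC24 9 of 10 were on the negative side (median -0.10), with a mean signal between 4.77 and 6.28 in FC12 mice, against 5.15 and 6.76 in FC24 mice. The median of this mean signal over mice was 5.31 in CC12 and 5.26 in CC30, and 5.39 in FC12 and 5.28 in FC24. The 10 genes were read in the same mice, so their signs are not independent of each other. None of the choroid plexus markers was called. Meninges markers were on the negative side for 9 of 10 genes in FC12 against FC4 (median -0.26), and 0 were called.

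Endothelium markers, which include Slc2a1, gave 4 higher and 1 lower of 12 in CC12 against CC30 and in FC12 against FC24. Microglia markers gave 0 higher and 2 lower of 13 in CC12 against CC30, Cx3cr1 at -0.25 and Siglech at -0.15. They also gave 2 lower in CC12 against CC4, and 0 of 13 were called in FC12 against FC24 and in FC12 against FC4. Oligodendrocyte markers gave 0 higher and 1 lower of 11 in CC12 against CC30, Opalin, at -0.62. Of all genes, 4.54% were called in CC12 against CC30 and 4.63% in FC12 against FC24. It was 6.68% in CC12 against CC4 and 5.49% in FC12 against FC4. Neuron markers had medians of -0.02 in CC12 against CC30 and -0.0027 in FC12 against FC24, with 0 of 13 called. The part of these cells in the differences of the astrocyte genes was not tested.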

How the data were processed

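Hippocampal RNA of 72 mice was measured on whole-transcript arrays, 1 for each mouse. The deposited values are log2 signals, made by the authors with RMA, which corrects the background and normalizes quantiles. The files name no genome build. Groups were taken from the sample labels. Symbols came from the platform annotation: 21218 probe sets carry 1 symbol, 1881 several and 12457 none. Array medians lay between 5.82 and 5.88, and 0 values were missing. Precision is limited by how many arrays a group has.

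The first principal component over all arrays, 17.4% of the variance, was subtracted. The methods also remove the first component, but state another share of variance for it, so the computation here may differ from theirs. Each of 12 comparisons was fitted to its 18 arrays with limma 3.58.1 in R 4.3.3, tested on simulated data, and 4 differences between training effects in a fit of all arrays. The local false discovery rates of the methods were not computed here. Python 3.11.15, numpy 2.4.6, pandas 2.3.3 and matplotlib 3.10.9 were used for the rest.

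The genes and lists were chosen with earlier results of these data known. All 29 genes are named, with values by mouse for those called or with an unadjusted p under 0.01 in FC4 against CC4, and from each other list at most the 3 genes with the smallest adjusted p in a comparison. Sox2 and the pairs of correlated genes were chosen after their values were seen. Alternatives were no component or 2 components removed, 1 fit of all groups, an equal variance test on the pair-wise statistics, adjusted by Benjamini-Hochberg, no probe sets of the dimmest 25%, the replicate number as a block, and arrays left out.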

Additional observations from a re-analysis of the deposited data

Results flagged for a closer look

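Among the 8 genes called in a dark phase comparison, each group of 9 mice was examined for a mouse set apart from the others. Of 64 sets of gene and group, 4 held such a mouse, where chance gives about 1 in 20. For Fgfr3, CC12 replicate 4 was at 8.56, and the other 8 CC12 mice lay between 8.67 and 8.74. For Aqp4, CC30 replicate 8 was at 9.58, and the others lay between 9.30 and 9.44. For Cldn10, FC4 replicate 1 was at 8.80, and the others lay between 8.64 and 8.72. For Gjb6, FC24 replicate 9 was at 7.59, and the others lay between 7.78 and 7.96. These mice stayed in all values of the report.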

How the results depend on the processing

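The 0 calls among the 28 genes after training and retrieval, in CC4 against CC30 and in FC4 against FC24 held under every alternative run. The 4 tests between training times were run under 1 alternative only, with no component removed, and their 0 calls held there. Gjb6 in FC4 against CC4 was called under none of its 8 alternatives, with adjusted p between 0.287 and 0.862. In the dark phase, with the replicate number as a block, 2 genes in place of 4 were called in CC12 against CC30 and 3 in place of 5 in FC12 against FC4. Without the 6 arrays that stood apart in an earlier analysis, 1 gene was called in CC12 against CC30 and 2 in FC12 against FC24. These arrays were CC30 replicate 3, FC30 replicate 4, CC12 replicate 2, FC12 replicate 2, FC24 replicate 4 and CC4 replicate 8. In the components computed here FC24 replicate 4 did not stand apart, at 2.8 on the first and -10.1 on the second. FC30 replicate 5, at 19.5 on the first, was kept. After subtraction of the first component, same-numbered mice correlated above 0.1 in 0 to 3 of 9 pairs of a comparison. This check cannot see what same-numbered mice share along that component. On it replicate 2 stood at 48.8 in CC12 and at 61.1 in FC12, while replicate 4 stood at 68.6 in FC30 and at -6.1 in CC30. In FC4 against CC4, 4 of 9 mice correlated best with their own number, with r up to 0.376, a hint from the data only. By the methods of the study, the 9 mice of a group came from 9 separate conditioning experiments. Neither the methods nor the labels say whether a replicate number marks an experiment, and the block was kept as an alternative. Fgfr3 was called in all 4 dark phase comparisons under every alternative. The alternatives were run for all 28 genes. Followed singly were 25 differences of 10 genes, those called in at least 1 setting, with Gjb6 in FC4 against CC4 added. Among these 25, 0 turned their sign: 148 values kept their side of the threshold, 16 passed it newly and 16 lost it. They were picked by their calls, so these counts do not measure how stable the 28 genes are. The causes were not tested.

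With 9 arrays a group the median SE of a difference was 0.037 for these genes in FC30 against CC30. Differences that were small beside a gene's own SE could not be called.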
